A study of Rattus norvegicus with 154 samples.

Results

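Claudins are the membrane proteins that form the strands of tight junctions. Here 6 of them were followed among 10411 genes named on the array, Cldn1, Cldn3, Cldn4, Cldn5, Cldn7 and Cldn11, which were matched by symbol in the probe table. They were measured by 7 of 15866 probe sets (control probe sets left out), since Cldn11 had 2. The array held 5 other claudins. The RNA came from lungs of 77 rats given sulfur mustard, the blistering chemical warfare agent bis-(2-chloroethyl) sulfide, or a control liquid. At each of 5 times (30 min, 1, 3, 6 and 24 h) there were animals given saline, isopropyl alcohol alone (a dose of 0 mg), or 1, 3 or 6 mg of the agent. The labels give isopropyl alcohol as the vehicle of every dose of the agent, so animals given it alone are the matched controls. The labels give separate animals as replicates, 3 in each of 23 groups and 4 in the groups of 6 mg at 30 min and 1 h, and 2 arrays (chips A and B) of each animal. Strain, sex, age and body weight are not given in the labels used here, so the doses are amounts in mg and not amounts per body weight.

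A claudin crosses the cell membrane several times, and its loops outside the cell meet those of a claudin on the neighbouring cell. The strands built in this way close the gap between cells of an epithelium or endothelium and set which ions can pass through it. Claudin 5 is the main claudin of endothelial cells, claudins 3 and 4 are prominent in alveolar epithelium, claudins 1 and 7 are found in airway epithelium, and claudin 11 is best known from the myelin of the brain and from Sertoli cells of the testis.

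All values are deposited intensities, averaged over the 2 chips of an animal. Differences are on the scale of log2(intensity + 7), which understates changes of dim probe sets, with the standard error (SE) of a limma fit over all 25 groups, and p-values were adjusted over the 11106 probe sets tested. A level of one probe set cannot be set against that of another. In whole lung, fewer cells of a type and less RNA per cell cannot be told apart. Array medians lay between 67.7 and 100.1. No surfactant, club cell, ciliated or endothelial marker was under the offset of 7 in every animal. The same held for heart muscle markers, so this does not test the label lung. Arrays were scanned on 17 days, and all 30 min animals fell in the later days 11 to 17, while all 6 mg animals of 3, 6 and 24 h fell in days 1 to 10. The lung labelled saline, 6 h, replicate 2 stood apart with the lowest Cldn3, Cldn4 and Cldn5 of all animals, and it enters the comparison of isopropyl alcohol with saline and the spread estimated over all groups.

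At 6 mg, 4 differences of claudin probe sets from isopropyl alcohol passed the threshold of 0.05. Cldn3 was higher at 3 h, Cldn5 was higher at 6 h, and at 24 h Cldn4 was higher while a Cldn11 probe set was lower. Of the 6 claudin probe sets tested, 0 passed at 30 min (0.0% of all probe sets passed) and 0 at 1 h (0.189% of all). At an unadjusted p under 0.05 there were 0 claudin probe sets and 583 of all at 30 min, and 1 and 1492 at 1 h. The count was 1 of 6 at 3 h, where 12.9% of all passed, 1 of 6 at 6 h, where 18.2% passed, and 2 of 6 at 24 h, where 6.73% passed. With so few members, these counts are close to the background at 3 and 6 h. Cldn4 passed the filter on dim probe sets only with the 6 mg animals, in which it was high, so that the counts over tested members are a description.

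**Figure D1:**
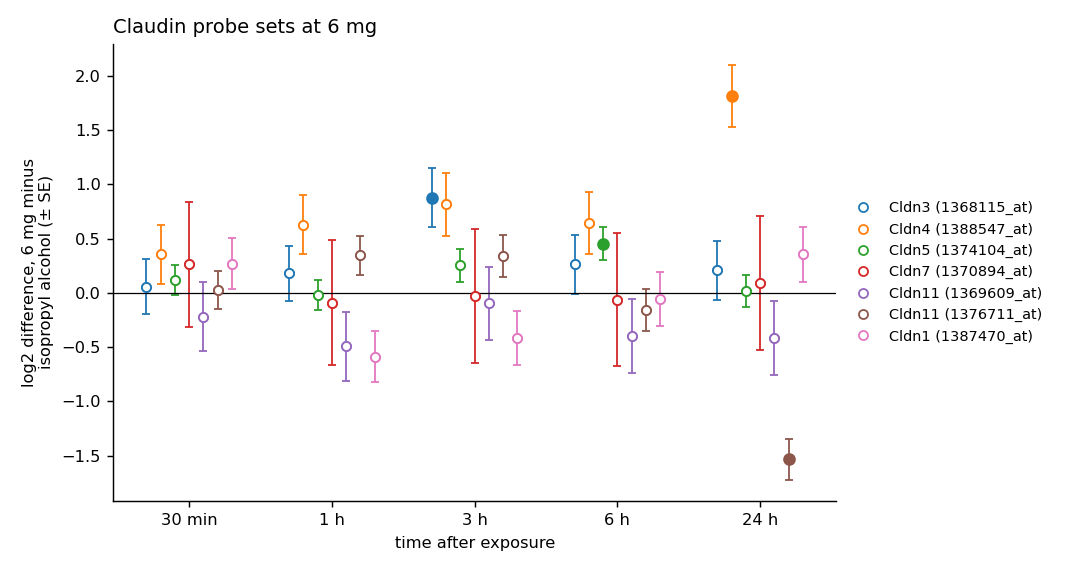
The log2 difference of 6 mg from isopropyl alcohol animals (y axis) of each claudin probe set at the 5 times (x axis), with bars of 1 SE. Filled points passed the adjusted p of 0.05: Cldn3 at 3 h, Cldn5 at 6 h, and Cldn4 and the Cldn11 probe set 1376711_at at 24 h.

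Cldn4 (1388547_at), an epithelial claudin that restricts the passage of sodium between cells, was the claudin with the largest rise. At 24 h its intensity was 109, 136 and 65.9 in the 6 mg animals, against 23.0, 38.0 and 16.5 in the isopropyl alcohol animals. The lowest 6 mg animal was above the highest isopropyl alcohol animal. The means were 104 ± 35.4 and 25.8 ± 11 (SD, n = 3 each), and the log2 difference was 1.82 ± 0.29 (SE), or 3.52-fold (limma, adjusted p = 7.75e-06). Fitted over all probe sets with no filter, the adjusted p was 1.29e-05. Over the other settings the adjusted p lay between 8.49e-07 and 7.85e-04, and with an animal left out between 2.87e-06 and 7.36e-04. Within the scan days that held animals of both groups, 1 against 1, the log2 difference was 1.97.

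The lower doses at 24 h lay between these groups. Cldn4 was 38.3, 39.6 and 39.0 in the 1 mg animals and 55.3, 45.9 and 43.2 in the 3 mg animals, against the isopropyl alcohol values above and 28.0, 29.6 and 37.4 in the saline animals. All animals of 1 mg and of 3 mg were above all of isopropyl alcohol, but the log2 differences of 0.60 (adjusted p = 0.812) and 0.86 (adjusted p = 0.325) did not pass, in comparisons where 0.333% and 0.504% of all probe sets passed. The 3 doses share the isopropyl alcohol animals. The linear trend over dose was 0.28 per mg (adjusted p = 5.78e-06, 8.11% of all passed), and 6 mg animals differed from 3 mg animals by 0.96 ± 0.29 (adjusted p = 0.0923, 1.1% of all passed).

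At the earlier times no Cldn4 difference passed. At 30 min the 6 mg animals had 33.5, 29.7, 32.9 and 33.0, against 27.8, 25.7 and 22.6 in isopropyl alcohol animals, a difference of 0.35. At 1 h they had 34.3, 52.7, 35.1 and 46.7, against 26.6, 31.9 and 18.1, a difference of 0.63 (adjusted p = 0.312). The groups did not overlap at either time. At 1 h, 2 of the 3 isopropyl alcohol animals were scanned on days 11 to 17, and 3 of the 4 animals of 6 mg on days 1 to 10. Animals scanned later had higher Cldn4 in only 2 of 10 groups, with a median difference of -0.25 on the log2 scale. With the scan days as a block the 1 h difference was 0.65 (limma, adjusted p = 0.58). At 3 h the 6 mg animals had 36.8, 54.0 and 145, against 38.1, 27.0 and 40.7 in isopropyl alcohol animals. The groups overlapped, and the difference of 0.82 (adjusted p = 0.0504) was 0.29 (adjusted p = 0.764) without replicate 3 of 6 mg, and the adjusted p lay between 0.00315 and 0.764 when each animal was left out in turn. At 6 h the values were 60.9, 69.6 and 68.9 in 6 mg animals and 31.95, 44.4 and 46.3 in isopropyl alcohol animals. They did not overlap, and the difference was 0.65 (adjusted p = 0.115), or 0.27 with the scan days as a block. The 6 mg difference at 24 h was larger than that at 6 h by 1.17 ± 0.41, which did not pass (adjusted p = 0.108), nor did the test over all times (adjusted p = 0.058).

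**Figure D2:**
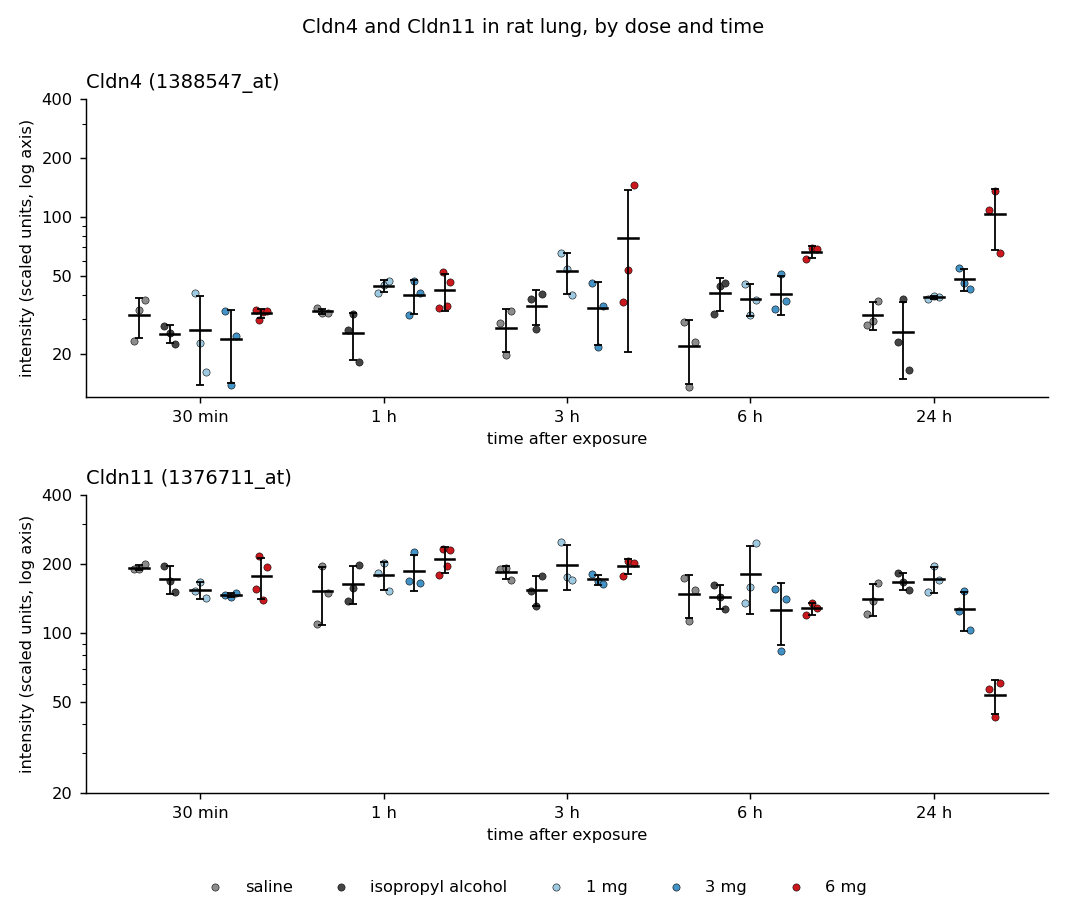
Intensity (y axis, log scale) of Cldn4 and of the Cldn11 probe set 1376711_at in each animal (points) by time and treatment (x axis), with the group mean and bars of 1 SD. At 24 h all 6 mg animals are above all isopropyl alcohol animals for Cldn4 (65.9 to 136) and below them for Cldn11 (43.1 to 60.3).

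Cldn3 (1368115_at), which shares the alveolar epithelium with Cldn4, was higher with 6 mg at 3 h. The 250 bases before its start are shown because Cldn3, Cldn5 and Cldn11 each had matches to both a CCAAT box (CCAAT) and a GC box (GGGCGG), on either strand and in capitals here. The sequence is from RefSeq, GRCr8, at chr12:27346548-27346797 on the minus strand, 5′ to 3′.
Cldn3: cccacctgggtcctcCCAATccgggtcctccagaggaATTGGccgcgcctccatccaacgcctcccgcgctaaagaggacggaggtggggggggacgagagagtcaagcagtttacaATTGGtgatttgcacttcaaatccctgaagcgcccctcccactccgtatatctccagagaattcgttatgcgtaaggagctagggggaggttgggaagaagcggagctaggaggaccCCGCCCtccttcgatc
This window held 3 CCAAT boxes and 1 GC box. Of 33469 rat promoters of the same length, 34.0% held a CCAAT box, 30.5% a GC box, 12.9% a TATA box (TATAAA) and 6.34% an AP-1 site (TGANTCA). Promoter sequences of 5 of the 6 genes were matched by symbol, and 0 of them held the TATA box or AP-1 letters. Cldn1 had 2 GC boxes and Cldn7 had 1.

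At 3 h Cldn3 was 174, 277 and 352 in the 6 mg animals, against 158, 81.6 and 196 in the isopropyl alcohol animals. The lowest 6 mg animal was below the highest isopropyl alcohol animal. The means were 268 ± 89.4 and 145 ± 58.5 (SD, n = 3 each), and the log2 difference was 0.88 ± 0.27 (1.84-fold, limma adjusted p = 0.0224). The 1 mg animals had 199, 212 and 221, all above the isopropyl alcohol animals, with a difference of 0.60 (adjusted p = 0.523, where 0.018% of all probe sets passed). The 3 mg animals had 154, 166 and 156, inside the isopropyl alcohol range, and the linear trend of 0.11 per mg did not pass (adjusted p = 0.0814, 12.1% of all passed).

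The Cldn3 call rested on a few animals. Without replicate 2 of isopropyl alcohol, its lowest animal and the only one of the 6 scanned in days 11 to 17, the difference was 0.53 (adjusted p = 0.323), and without replicate 3 of 6 mg it was 0.66 (adjusted p = 0.304), and over animals left out the adjusted p lay between 0.00378 and 0.323. Within scan days that held both groups it was 0.79 (1 against 1 animal) and 0.32 (2 against 1). At the other times the 6 mg difference of Cldn3 did not exceed 0.26, with 0.06 at 30 min, 0.18 at 1 h and 0.21 at 24 h, where the interval of 2 SE on either side ran from -0.33 to 0.75. Its 6 mg effect did not differ between times beyond the error (adjusted p = 0.487).

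Some markers of other epithelial cells moved at the same time as Cldn3. At 3 h, 3 of 8 markers of basal and other epithelial cells rose in 6 mg animals, the keratins Krt8 (0.58), Krt18 (0.62) and Krt19 (0.86) on the log2 scale. At that time 12.9% of all probe sets passed, and those that fell made up 9.1% of all. Of the other markers in this list, Krt5 (0.27), Krt14 (0.51) and Epcam (0.21) were higher. Krt15 (-0.31) and Cdh1 (-0.21) were lower, and none of these passed. The sum of the 8 markers was 3111 to 5215 in 6 mg animals and 2439 to 3127 in isopropyl alcohol animals, with overlap. Most of that sum was Krt8, Krt18 and Krt19, with means of 872.5, 419.7 and 1353 in 6 mg animals. Of 7 type II markers 1 fell, the phosphate carrier Slc34a2 (-0.51). Sftpa1 (0.18), Sftpb (0.27), Sftpc (0.31), Sftpd (0.26) and Napsa (0.32) were higher and Abca3 (-0.19) was lower, and none of these passed. The sum of the 7 type II markers was 18350 to 31120 in 6 mg animals and 19740 to 20830 in isopropyl alcohol animals. Of 4 ciliated cell markers 1 rose, Tppp3 (0.49, adjusted p = 0.0243, and 0.37, adjusted p = 0.0538, with the scan days as a block), and their sum was 1327 to 1848 in 6 mg animals and 971.1 to 1316 in isopropyl alcohol animals, with no overlap. Most of that sum was Tppp3 itself, with means of 1328 and 943.4, and Foxj1, Tekt1 and Rsph1 did not pass. The part of these cells in the Cldn3 difference was not tested. At 24 h, beside the rise of Cldn4, 0 of 8 basal and other epithelial markers and 0 of 7 type II markers passed, where 6.73% of all probe sets did. The water channel Aqp5 was the only one of 6 type I markers that passed there, and it fell by 0.93.

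Cldn7 (1370894_at) and Cldn1 (1387470_at), claudins of airway epithelium, gave no call. At 24 h Cldn7 was 28.4, 100 and 40.0 in 6 mg animals and 24.4, 38.4 and 100 in isopropyl alcohol animals, and the groups spanned nearly the same range. Its 6 mg differences lay between -0.09 and 0.26 over the 5 times with an SE of 0.58 to 0.62, so that the interval of 2 SE at 24 h, -1.14 to 1.32, holds both falls and rises of more than 1 log2 unit. With the scan days as a block the differences were 0.21 at 30 min, 1.60 at 1 h (adjusted p = 0.424), 0.37 at 3 h, 0.13 at 6 h and 0.61 at 24 h (adjusted p = 0.66), and none passed. Cldn7 was thus too variable among animals for a moderate change to be detectable.

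Cldn7 was mostly higher in the animals scanned later. Its median was 114 (20.1 to 153) in the 29 animals scanned on days 11 to 17, and 37.0 (13 to 155) in the 47 animals scanned on days 1 to 10. Within the 10 groups that held animals of both periods, the later animals were higher on average in 10 of 10, by a median of 1.27 on the log2 scale. Each period of such a group held only 1 or 2 animals. This division of the days, used also for the other probe sets, was chosen after seeing the data. Whether RNA quality had a part in the pattern within groups was not tested. All groups of 30 min were scanned late, and their Cldn7 means of 103 to 137 held the highest group mean of the series (1 mg, 137 ± 14.3). At 30 min the difference between 6 mg animals (127, 96.1, 137 and 137) and isopropyl alcohol animals (119, 85.6 and 103) was 0.26, with overlap. A difference in Cldn7 between 30 min and later times cannot be told apart from the scan days or from RNA quality. The 3′ to 5′ ratios of control genes, which rise as RNA degrades, were lower at 30 min. On the log2 scale the GAPDH ratio had group means of 0.132 to 0.371 at 30 min and 0.531 to 1.34 later. The actin ratio had 0.303 to 0.435 at 30 min and 0.728 to 1.64 later.

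**Figure D3:**
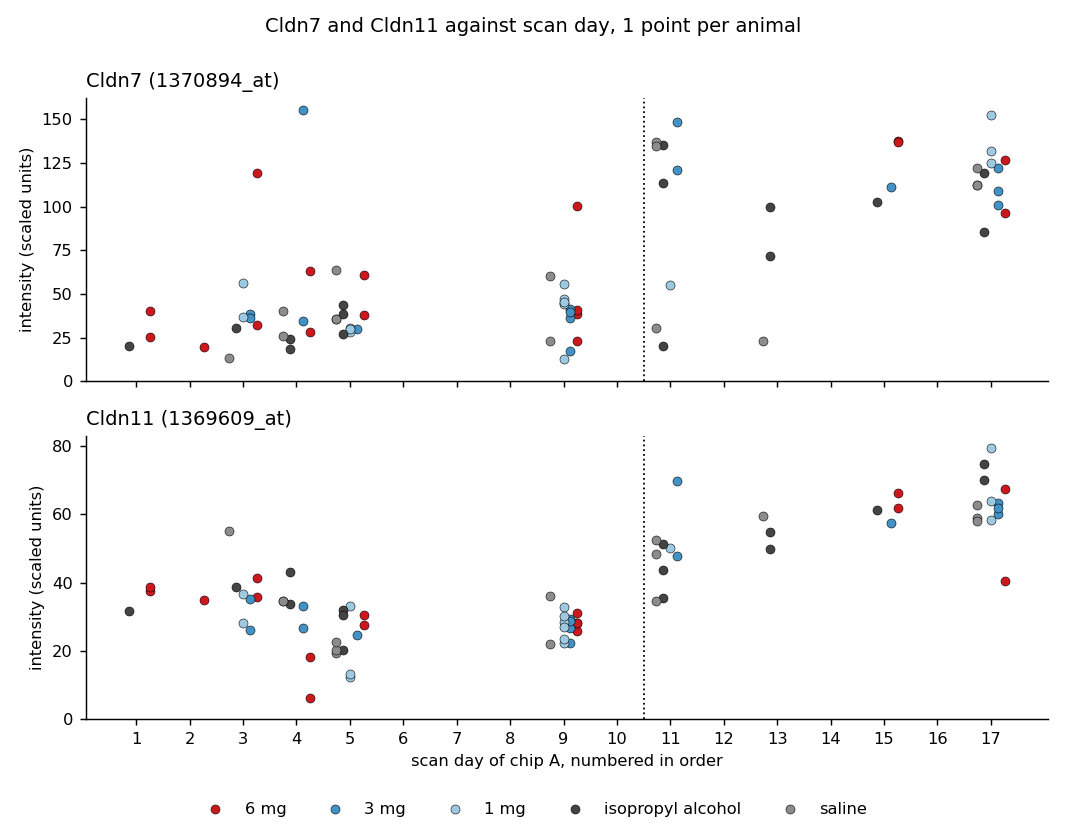
Intensity (y axis) of Cldn7 and of the Cldn11 probe set 1369609_at in each animal (points, coloured by treatment) against the scan day of chip A, numbered in order (x axis), with a dotted line before day 11. Both lie higher in the later period (medians 114 and 59.0) than in the earlier (37.0 and 28.9).

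Cldn1, needed for the barrier of the skin in mice, lay in the lowest 30% of mean values and was not in the fit of tested probe sets. Its animals ranged between 9.25 and 53.1. At 1 h it was 19.4, 14.9, 16.3 and 17.2 in 6 mg animals, against 37.4, 25.3 and 23.2 in isopropyl alcohol animals. The groups did not overlap. The difference was -0.59 ± 0.23, which did not pass over all probe sets without the filter (adjusted p = 0.367). At that time 2 of the 3 isopropyl alcohol animals were scanned on days 11 to 17, while 3 of the 4 animals of 6 mg were scanned on days 1 to 10 and 1 had a chip in each period. Animals scanned later had higher Cldn1 in 10 of 10 groups, by a median of 0.28 on the log2 scale. At 24 h it was 25.4, 19.5 and 29.7 in 6 mg animals and 10.9, 20.7 and 24.5 in isopropyl alcohol animals, with overlap and a difference of 0.36 ± 0.25 (adjusted p = 0.544). Chips A and B of an animal correlated only weakly for Cldn1 (r = 0.31 over 77 animals), against 0.66 for Cldn3, 0.69 for Cldn4, 0.83 for Cldn5 and 0.88 for Cldn7.

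Cldn5 (1374104_at), the claudin that seals blood vessels, was higher with 6 mg at 6 h. Its promoter window (RefSeq, GRCr8, chr11:95718599-95718848, minus strand) held 2 CCAAT boxes and 1 GC box, in capitals.
Cldn5: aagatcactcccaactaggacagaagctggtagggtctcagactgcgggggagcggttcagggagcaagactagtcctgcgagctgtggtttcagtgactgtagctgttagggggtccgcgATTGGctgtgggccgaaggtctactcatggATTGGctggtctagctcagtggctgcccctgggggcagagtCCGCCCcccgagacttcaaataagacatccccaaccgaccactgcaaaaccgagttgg
At 6 h its intensity was 2468, 2508 and 2704 in the 6 mg animals, against 1726, 1816 and 2058 in the isopropyl alcohol animals. Every 6 mg animal was above every isopropyl alcohol animal. The means were 2560 ± 126 and 1867 ± 171 (SD, n = 3 each), a log2 difference of 0.46 ± 0.15 or 1.37-fold (limma, adjusted p = 0.0256). The 1 mg animals had 2190, 1552 and 1906 and the 3 mg animals 2086, 2234 and 2216, so that the 3 mg animals were also above all isopropyl alcohol animals. The trend over dose was 0.08 per mg (adjusted p = 0.00807, 20.4% of all passed).

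This call was less stable than those at 24 h. It was lost after quantile normalization (0.28, adjusted p = 0.14), with scan days as a fixed block (0.43, adjusted p = 0.0698) and in 4 of 6 fits with an animal left out, and over settings the adjusted p lay between 8.09e-04 and 0.14. All 6 mg animals of 6 h were scanned on the same pair of days, which held no isopropyl alcohol animal of 6 h, and the 3′ to 5′ ratio of the actin control, which rises as RNA degrades, was 1.64 ± 0.267 on the log2 scale in 6 mg and 0.728 ± 0.304 in isopropyl alcohol animals. With both control ratios in the fit the difference was 0.38 (adjusted p = 0.0778). The rescan note on an array of 6 mg, 6 h, replicate 3 names the chip of another animal, and without that animal the difference was 0.41 (adjusted p = 0.0943) and the trend over dose 0.07 per mg (adjusted p = 0.047).

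At the other times Cldn5 did not pass. At 3 h it was 2065, 1962 and 2495 in 6 mg animals and 1637, 1947 and 1863 in isopropyl alcohol animals, with no overlap and a difference of 0.26 (adjusted p = 0.286). At 24 h it was 1736, 1870 and 1944 in 6 mg animals and 1676, 1967 and 1832 in isopropyl alcohol animals, with overlap. The difference there was 0.02, and the interval of 2 SE ran from -0.28 to 0.32.

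Several markers of endothelial cells fell at 6 h and 24 h. At 6 h, 5 of 9 endothelial markers fell in 6 mg animals, where 11.1% of all probe sets fell. Among the 5 were the growth factor receptor Kdr (-0.82) and the surface mucin Emcn (-0.74). The summed intensity of the 9 markers was 5380 to 7016 in 6 mg animals and 7379 to 9574 in isopropyl alcohol animals. At 24 h, 4 of 9 fell, where 4.02% of all probe sets fell, with sums of 7096 to 8446 in 6 mg animals and 8990 to 10550 in isopropyl alcohol animals. With the scan days as a block 3 of 9 fell at 6 h, since Tie1 (adjusted p = 0.174) and Ramp2 (adjusted p = 0.0849) no longer passed, and 4 of 9 at 24 h. Pecam1, an adhesion molecule between endothelial cells, differed by 0.34 at 6 h and did not pass (adjusted p = 0.49). With the scan days as a block the Pecam1 difference was -0.08 (limma, adjusted p = 0.912). Esam, an adhesion molecule of endothelial tight junctions, was 794 ± 103 in 6 mg animals and 1110 ± 44.8 in isopropyl alcohol animals at 24 h (log2 difference -0.49, adjusted p = 0.00804). At 6 h, the time of the Cldn5 difference, Esam was 1219 ± 105 in 6 mg animals and 1035 ± 89.5 in isopropyl alcohol animals, a difference of 0.23 that did not pass (adjusted p = 0.207), and with the scan days as a block it was 0.39 higher (adjusted p = 0.0112). The part of these markers in the Cldn5 values was not tested.

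**Figure D4:**
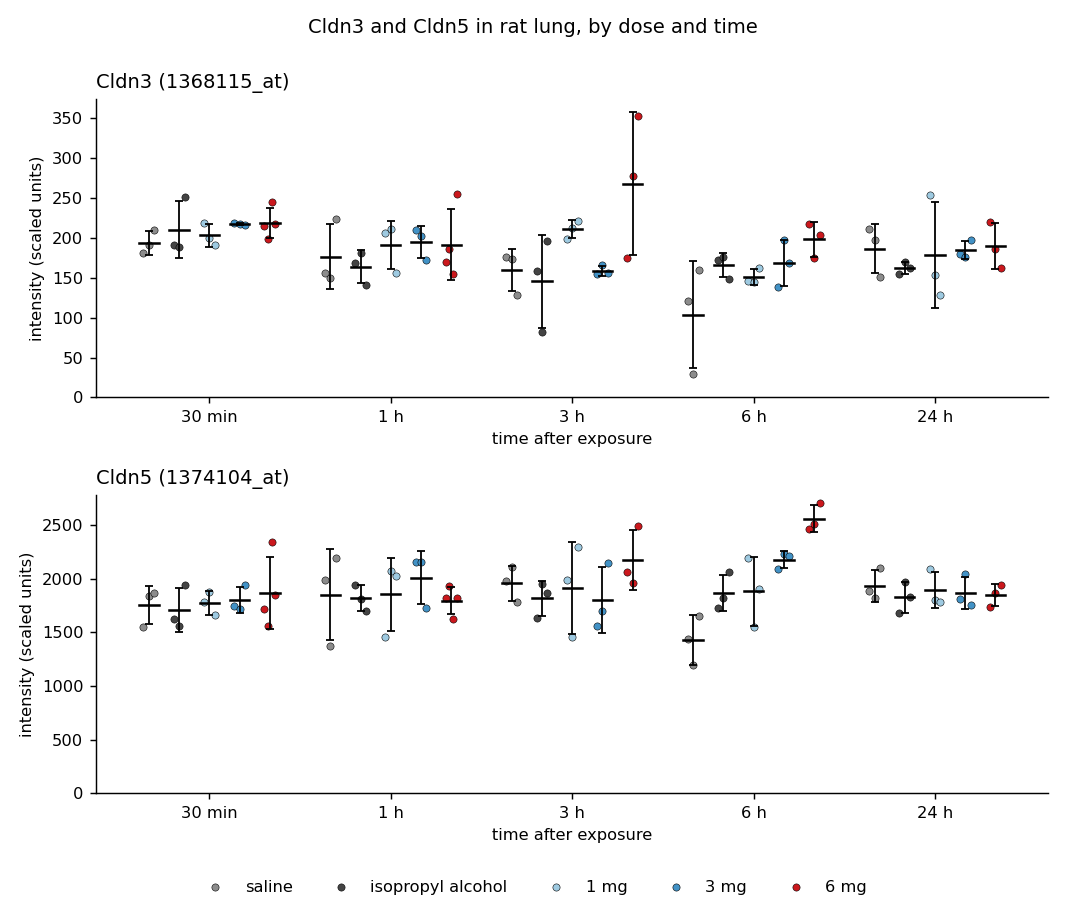
Intensity (y axis) of Cldn3 and Cldn5 in each animal (points) by time and treatment (x axis), with the group mean and bars of 1 SD. The 6 mg animals are high at 3 h for Cldn3 (174 to 352) and at 6 h for Cldn5 (2468 to 2704).

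Cldn11 was measured by 2 probe sets that differed in their values. Probe set 1376711_at, annotated to an expressed sequence tag, carried the fall at 24 h. The promoter window of Cldn11 (RefSeq, GRCr8, chr2:114149540-114149789, minus strand) held 2 CCAAT boxes and 1 GC box, in capitals.
Cldn11: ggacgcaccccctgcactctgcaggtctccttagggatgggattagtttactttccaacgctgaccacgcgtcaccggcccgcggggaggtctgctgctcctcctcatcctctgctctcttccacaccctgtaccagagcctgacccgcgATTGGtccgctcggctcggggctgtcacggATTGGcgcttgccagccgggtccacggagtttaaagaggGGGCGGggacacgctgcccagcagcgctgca
At 24 h its intensity was 57.2, 43.1 and 60.3 in the 6 mg animals, against 183, 167 and 154 in the isopropyl alcohol animals. The groups lay far apart. The means were 53.5 ± 9.16 and 168 ± 14.3 (SD, n = 3 each), and the log2 difference was -1.53 ± 0.19, or 2.90-fold lower (limma, adjusted p = 2.41e-08). The adjusted p stayed under the threshold in the 17 other settings (4.42e-15 to 1.12e-04) and in the 6 fits with an animal left out (2.17e-07 to 3.48e-06). Within the scan days shared by both groups, 1 against 1 animal, the difference was -1.55.

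Doses below 6 mg did not give a Cldn11 call at 24 h. The 1 mg animals had 151, 195 and 170, which overlapped with isopropyl alcohol. The 3 mg animals had 125, 152 and 104, all below the isopropyl alcohol animals, with a difference of -0.39 (adjusted p = 0.854). Animals of 6 mg were lower than those of 3 mg by a log2 difference of -1.14 ± 0.19 (adjusted p = 1.34e-04). The trend over dose was -0.27 per mg (adjusted p = 5.52e-10). Saline animals had 121, 138 and 165.

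The fall of 1376711_at was late. At 1 h the probe set was 179, 232, 197 and 232 in 6 mg animals and 138, 157 and 198 in isopropyl alcohol animals, and at 3 h it was 178, 205 and 202 in 6 mg animals and 153, 131 and 177 in isopropyl alcohol animals. The groups overlapped at 1 h and not at 3 h, and neither difference passed (0.35, adjusted p = 0.381, and 0.34, adjusted p = 0.255). At 6 h it was 120, 136 and 128 in 6 mg animals and 162, 144 and 127 in isopropyl alcohol animals, with overlap and a difference of -0.16. The 6 mg difference at 24 h was below that at 6 h by -1.38 ± 0.27 (adjusted p = 8.66e-04, where 3.35% of all probe sets passed), and it differed over all times (adjusted p = 1.09e-06, 11.4% of all passed). Cldn11 was the only claudin whose 6 mg effect passed either test.

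The other Cldn11 probe set, 1369609_at, is annotated to a RefSeq transcript and gave no call at 24 h, though its difference had the same sign. It is dim, with a mean log2 value of 5.44 that lies just above the filter at 5.35, and its lowest animal had 6.15. At 24 h it was 18.2, 25.7 and 37.5 in 6 mg animals and 43.3, 20.4 and 54.9 in isopropyl alcohol animals, with overlap. Its difference was -0.42 ± 0.34 (adjusted p = 0.59), with an interval of 2 SE from -1.10 to 0.27 that does not reach the -1.53 of the other probe set. Within the scan days shared by both groups, 1 against 1 animal, the difference of 1369609_at was -0.955. Across 77 animals, after removal of the group means, the 2 probe sets had a correlation of -0.12, and chips A and B of an animal correlated at 0.93 for 1376711_at and 0.72 for 1369609_at. Like Cldn7, 1369609_at was mostly higher in animals scanned later, with a median of 59.0 in days 11 to 17 and 28.9 in days 1 to 10. Later animals were higher on average in 10 of 10 groups by a median of 0.70. For 1376711_at later animals were higher in 3 of 10 groups.

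Markers of several cell types fell beside Cldn11 at 24 h, when 4.02% of all probe sets fell. Of 6 smooth muscle markers 5 fell, and their sum was 1253 to 1676 in 6 mg animals and 2128 to 2725 in isopropyl alcohol animals. Of 6 fibroblast markers 2 fell, Col1a2 (-0.55) and Lum (-0.52), or 1 of 6 with the scan days as a block, where Col1a2 did not pass (-0.42, adjusted p = 0.14), with sums of 6228 to 7206 in 6 mg animals and 7449 to 9232 in isopropyl alcohol animals. T and NK cell markers also fell, with sums of 74.5 to 115 in 6 mg animals and 312 to 407 in isopropyl alcohol animals. Of the glial and Schwann cell markers tested, 0 of 2 passed, and the sum was 1725 to 1943 in 6 mg animals and 1834 to 2229 in isopropyl alcohol animals. Most of that sum was Pmp22, with means of 1768 and 1932. The part of these cells in the Cldn11 difference was not tested.

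Isopropyl alcohol and saline animals differed in 0 of 6 claudin probe sets at each of the 5 times, where between 0.0% and 0.027% of all probe sets passed (0.027% at 30 min, 0.009% at 3 h and 0.018% at 6 h). The largest differences were at 6 h. Cldn3 was 172, 176 and 148 in isopropyl alcohol animals and 121, 29.3 and 160 in saline animals, a difference of 0.89 (adjusted p = 0.178) that was 0.22 without the saline animal that stood apart. Cldn4 differed by 0.74 (adjusted p = 0.303) and Cldn5 by 0.39 (adjusted p = 0.283), with no overlap in either, and they were 0.51 and 0.27 without that animal. At an unadjusted p under 0.05 there were 3 claudin probe sets at 6 h and 0 at the other times (limma). Isopropyl alcohol animals did not differ between times in any of the 6 (0.162% of all passed), with 0 at an unadjusted p under 0.05. At 1 mg and 3 mg, 0 of 6 probe sets passed at any time, and at most 2 had an unadjusted p under 0.05. At 3 mg 1.68% of all probe sets passed at 6 h, and at 1 mg 0.018% at 3 h and 0.009% at 6 h. Between 3 mg and 1 mg at 24 h, 0 of 6 passed, where 0.675% of all did, with 2 at an unadjusted p under 0.05. The trend over dose at 1 h passed for 0 of 6 (0.477% of all), with 0 at an unadjusted p under 0.05.

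Ordered over the 25 groups, Cldn4 had its highest mean in 6 mg at 24 h (104 ± 35.4) and the next in 6 mg at 3 h (78.6 ± 58.2), and these neighbours did not differ beyond their spread. Its lowest mean was in saline at 6 h (21.9 ± 7.87), and isopropyl alcohol means lay between 25.3 and 40.9. Cldn3 was highest in 6 mg at 3 h (268 ± 89.4), followed by 6 mg at 30 min (218 ± 19.2), within the spread. Cldn5 was highest in 6 mg at 6 h (2560 ± 126), above the next, 3 mg at 6 h (2179 ± 81.0), with no overlap of animals. It did overlap with 6 mg at 3 h (2174 ± 283), where 1 animal had 2495, above the lowest of 6 mg at 6 h (2468). The Cldn11 probe set 1376711_at was lowest in 6 mg at 24 h (53.5 ± 9.16), with all its animals below every animal of the other groups.

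Over the 25 group means of log2 values, the genes with patterns most like Cldn4 were Commd3 (r = 0.911), Cd63 (0.893), Ifitm1 (0.888), Bex1 (0.874) and Zfp688 (0.872). For the Cldn11 probe set 1376711_at they were Fbln2 (0.88), Scn7a (0.874), Stmn1 (0.859), Ndufa4l2 (0.853) and Srpx2 (0.851). For Cldn3 the nearest was Calr (0.825), and the list also held the epithelial transcription factor Elf3 (0.764). For Cldn5 the nearest was Mrps31 (0.857), for Cldn7 Sdf2l1 (0.895), for Cldn1 Gria3 (0.81) and for 1369609_at Capn5 (0.937). These group means share arrays, scan days and scaling, and the values describe likeness only. Among the claudins themselves, correlations over 77 animals after removal of group means ran from -0.38 to 0.34, so that no pair of probe sets moved closely together within groups.

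Among the remaining genes of the junction, those that passed at 6 mg were lower. Of 34 other tight junction genes listed, 18 were tested, and 0 rose at any time. None passed at 30 min, and 1 fell at 1 h. At 3 h 4 fell, where 9.1% of all probe sets fell, at 6 h 8 fell, where 11.1% of all fell, and at 24 h 2 fell, where 4.02% of all fell. Their median difference at 3 h was -0.25, beside -0.05 over all probe sets. It was -0.28 beside -0.04 at 6 h, and -0.18 beside -0.01 at 24 h. Pard3, a scaffold that sets cell polarity, was 57.7 ± 29.4 in 6 mg and 142 ± 7.41 in isopropyl alcohol animals at 3 h (log2 difference -1.32), and 17.6 ± 8.94 and 125 ± 18.1 at 6 h (-2.51 ± 0.24, limma adjusted p = 7.21e-12). Patj, a scaffold of the Crumbs polarity complex, fell by 0.66 at 3 h and 1.11 at 6 h, the scaffold Magi3 by 0.92 and 1.01, and the multi-PDZ scaffold Mpdz by 0.41 and 0.76. At 24 h Pard3 differed by -0.73 (adjusted p = 0.0511), and Esam (-0.49) and Magi1 (-0.89) fell. With the scan days as a block 6 fell and 1 rose at 3 h, 8 fell and 1 rose at 6 h, 3 fell at 24 h and 0 passed at 1 h. The genes that rose there were Lsr, a protein of the junction where 3 cells meet, at 3 h (0.38, adjusted p = 0.0435) and Esam at 6 h (0.39, adjusted p = 0.0112).

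Of 9 adherens junction genes, 2 fell at 3 h (Afdn by 0.51 and Ctnnd1 by 0.65), 3 at 6 h (Jup by 0.46, Vcl by 0.41 and Afdn by 0.38) and 0 at 24 h. The shares of all probe sets that fell were 9.1% at 3 h, 11.1% at 6 h and 4.02% at 24 h. Of 5 desmosome genes 1 fell at 6 h, Pkp4 by 0.83. Among 7 tested transcription factors known to act on junction genes, Elf3 (0.64) and Klf4 (0.63) rose at 3 h. The repressors Snai1 (-0.58) and Zeb1 (-0.40) fell at 6 h. The part of these factors in the claudin differences was not tested. At 3 h 12.9% of all probe sets passed, and those that fell made up 9.1%. With lists this small, the desmosome and factor counts at 6 h are close to the background. With the scan days as a block Snai1 (adjusted p = 0.0735) and Vcl (adjusted p = 0.115) did not pass at 6 h. At 24 h, 0 of 7 factors passed, where 6.73% of all probe sets did. Of the other claudins on the array, Cldn10 and Cldn12 were tested and 0 of 2 passed at 6 mg, and Cldn2, Cldn16 and Cldn19 were too dim to be tested.

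**Figure D5:**
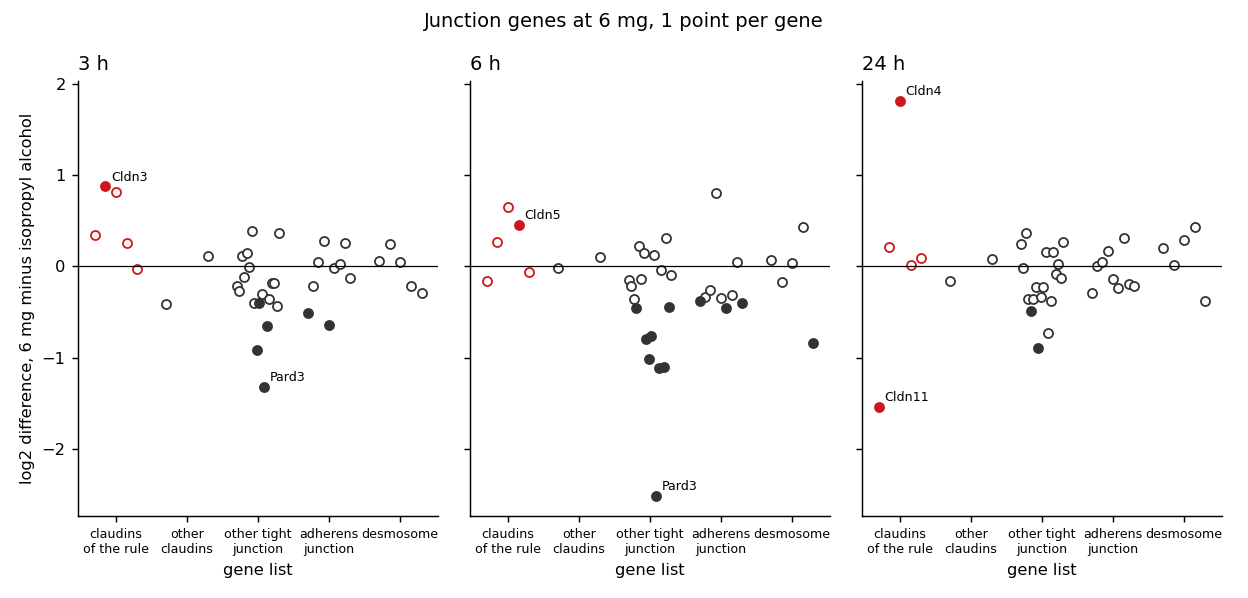
Log2 difference of 6 mg from isopropyl alcohol animals (y axis) of single genes (points) in each junction list (x axis) at 3, 6 and 24 h (panels), with filled points past the adjusted p of 0.05. Other tight junction genes lie mostly below 0 at 6 h, with Pard3 lowest at -2.51.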

How the data were processed

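The chip type was Affymetrix RAE230A, per the file headers, and 154 arrays held the lung RNA of 77 rats. The deposited table holds linear intensity values, already summarised and scaled by the authors (a 2% trimmed mean of 150 on every array), and the program used is not given in the sources used here. Values were turned into log2(intensity + 7), 7 being their 10th percentile, chips A and B were averaged per animal, and 57 control probe sets and the lowest 30% by mean were left out, which left 11106. Of the others 12783 had 1 gene, 312 several and 2771 none. The tests came from limma 3.58.1, with statmod 1.5.0 under R 4.3.3, in a model of 25 group means, two-sided, with Benjamini-Hochberg adjustment per comparison at 0.05, and checked on simulated data. Cldn1, below the filter, was taken from a fit over all probe sets.

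Each dose was compared with isopropyl alcohol, isopropyl alcohol with saline, and 6 with 3 mg and 3 with 1 mg at 24 h, beside a linear trend over dose and a test of the 6 mg effect between times. Precision is limited by the number of animals. All claudin probe sets were reported, with up to 4 passing genes of each other list by smallest adjusted p and the 5 genes most like each claudin by the correlation of group means. Cell markers were counted by list, and those named were picked after their values were seen. Their sums are of intensities, so bright probe sets weigh most in them. The claudins and lists were chosen with earlier results of these data known. The division of scan days between days 10 and 11 was chosen after seeing the data. Alternatives changed the offset, filter, scaling, chip, weights, scan-day and lot blocks, control ratios and animals used. Promoter sequences are from RefSeq, GRCr8.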

Additional observations from a re-analysis of the deposited data

Results flagged for a closer look

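In the 4 animals given 6 mg and taken at 30 min, 1 animal had a Cldn4 intensity of 29.7, below the 32.9 to 33.5 of the other animals, and its gap to the nearest was 0.981 of the whole range on the mean of the chips' log2 values (0.831 on the mean intensities). In the 4 animals of 6 mg at 1 h, 1 animal had 6.15 for the Cldn11 probe set 1369609_at, below the 34.9 to 41.5 of the other animals, with a gap of 0.905 of the range of log2 values (0.812 on the mean intensities). On the log2 values both exceed Dixon's critical value for 4 samples, and on the mean intensities that of Cldn11 does not, and chance gives about 1 in 20 such results, in 14 checks here. Neither value is in a group mean behind a call of its probe set. Both enter the spread estimated over all groups, which for Cldn4 is used in the 24 h call.

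The 6 mg effect on the Cldn11 probe set 1376711_at differed between times. The difference of the effects at 24 h and 6 h had an adjusted p of 8.66e-04, and the test over all times had 1.09e-06 (limma).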

How the results depend on the processing

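Of the 6 mg differences of tested claudin probe sets from isopropyl alcohol, the 7 with an unadjusted p under 0.05 kept their sign in every setting run, and 11 of the other 23 had the other sign in at least 1, where none passed. With scan days as a fixed block these included Cldn7 at 1 h (1.60, against -0.09), 3 h (0.37, against -0.03) and 6 h (0.13, against -0.06), and Cldn11 for 1369609_at at 3 h (0.20, against -0.10) and 1376711_at at 30 min (-0.02, against 0.03). The numbers of claudin probe sets past the threshold moved as follows. For 6 mg against isopropyl alcohol at 3 h, the count of 1 was 2 with an offset of 32, with array medians set equal or when the 3 animals of scan days 13 and 14 were left out, and 0 with chip B alone or a fit of that time alone. At 6 h, the count of 1 was 2 with array weights, and 0 with quantile normalization, chip A alone, scan days as a fixed block, control ratios as covariates or that time alone. At 24 h, 2 became 1 when the lowest 50% were left out, since Cldn4 was then not tested. For 3 mg at 6 h, 0 became 1 with array weights. For 6 against 3 mg at 24 h, 1 became 2 with an offset of 32, array weights or a random scan-day block. The trend at 3 h gave 1, not 0, without scan days 13 and 14, and the trend at 6 h gave 2 with an offset of 32 or that time alone, 0 with quantile normalization and 3 with array weights. The trend at 24 h gave 1 with the lowest 50% left out. The 24 h minus 6 h difference gave 2 with array weights and with scan days as a fixed or random block, and the test between times gave 2 with an offset of 32, array weights or the random block. Isopropyl alcohol animals between times gave 2, not 0, with array weights. The causes were not tested. With an animal left out the counts were 0 to 2 for 6 mg at 3 h, 0 to 1 at 6 h, 0 to 1 for isopropyl alcohol against saline at 6 h, 1 to 2 for 6 against 3 mg, 0 to 2 for the trend at 3 h, 1 to 2 for 24 h minus 6 h and 1 to 2 between times.

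With all arrays in the fit and the chip letter as a replicate block, 1 claudin probe set passed for 6 mg at 3 h, 1 at 6 h and 2 at 24 h, and it changed no call. Array signal limits Cldn1, Cldn4 and the Cldn11 probe set 1369609_at, which lie near or below the filter on dim probe sets.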
